A study of Homo sapiens with 35 samples.

Results

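Homologous recombination repairs a broken chromosome by copying the intact sister chromatid, and the Fanconi anaemia pathway clears crosslinks between the DNA strands before handing the resulting break to recombination. The genes of both pathways were followed here across all 12 groups of the study. They were taken as 42 listed gene symbols and 37 of them were measured among 22336 genes. BRCA2, FANCA, FANCD2 and RBBP8 had no single-symbol probe set in the annotation used here, the probe set of RAD54B was shared with FSBP, and these 5 were not analysed here. Each of the 37 was read by 1 probe set, and all 37 had a mean at or above 4.36, the median level of all probe sets. RMI2 (4.44), SFR1 (4.73) and RAD51B (5.01) lay nearest to that limit.

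In recombination, the MRE11, RAD50 and NBN complex recognises the break and starts to trim it, EXO1 lengthens the single strand, and BRCA1 with BARD1 and PALB2 prepares that strand for exchange with the sister. RAD51C and XRCC2 are among the genes that assist strand exchange, and RAD54L helps the strand to invade. The joined molecules are taken apart by BLM with TOP3A, RMI1 and RMI2 without crossing over, or cut by nucleases such as MUS81 with EME1, and GEN1. In the Fanconi pathway, FANCM recruits the core complex to a stalled fork, and the ligase FANCL with the conjugating enzyme UBE2T then attaches ubiquitin to FANCI and its partner. Many of these genes are transcribed most strongly in S phase, and mTOR, a kinase that couples nutrients to translation, governs both growth and entry into the cell cycle.

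The cells were SUM149, a human line established from triple-negative inflammatory breast cancer and known to carry a truncating BRCA1 mutation. Cells were given PP242, PP242 with IR, RAD001, RAD001 with IR, IR alone or DMSO, the solvent in which such inhibitors are dissolved. PP242 blocks the active site of mTOR in both of its complexes, and RAD001 (everolimus) is a rapamycin analog that acts on the first complex. From each treatment, polysome RNA, the mRNA engaged by several ribosomes at once, and total RNA were hybridised to whole-transcript arrays. Every group had 3 arrays except PP242 + IR in total RNA, which had 2, and all groups share the 1 cell line. IR is taken to mean ionizing radiation, since the labels do not spell it out, and they state neither doses nor times. The titles call the replicates biological without naming separate cultures, so a p-value covers only the spread among these samples, and that spread may be technical.

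The 35 arrays held log2 values from 1.85 to 19.9, with array medians from 4.19 to 4.84. EPCAM (mean 14.65), KRT5 (15.88) and EGFR (12.96) were high, but KRT14 (6.69) and ITGB4 (7.36) were the lowest of 9 measured epithelial markers. ESR1 (4.33), PGR (3.51), PTPRC (3.90), PECAM1 (3.57) and COL1A1 (5.15) lay near the low end, and 1 of the 7 measured leukocyte markers, CD68, was high (14.14). Of the 35 arrays, 8 stood apart from the others of their groups. They were replicate 3 of PP242, RAD001 and RAD001 + IR in both kinds of RNA, replicate 3 of PP242 + IR in polysome RNA, and replicate 2 of PP242 + IR in total RNA. In them the median difference from the other arrays of the same group was -2.01 to -1.25 for 22 S phase genes, -1.51 to -0.68 for 17 G2/M genes, and 0.96 to 1.35 for 10 sterol synthesis genes. None of the 8 was an IR or a DMSO array, so the main results on the inhibitors are also given without them. PP242 + IR in total RNA then rests on 1 array in every comparison that uses it. In bulk RNA, fewer cells in a state and less RNA per cell cannot be told apart.

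The recombination and Fanconi genes were lower as a group in the 8 arrays. Their median difference from the other arrays of the same group ran from -0.68 to -0.41, against -0.10 to 0.04 for all genes. In each array 29 to 33 of the 37 were below 0, against 43.8% to 60.9% of all genes. Over the 8 arrays, 26 genes were below in every one, 1 was above in every one, and 10 were mixed. The matching shares of all genes were not counted. The arrays were picked out by genes of the cell cycle, so these differences are a description with no test. Lower values were not confined to the 8. PP242 total RNA replicate 2 lay below replicate 1 for 33 of the 37 genes, at a median of -0.55, with the S phase genes at -0.91, and RAD001 total RNA replicate 2 lay below replicate 1 for 34, at -0.48, with the S phase genes at -0.35. These shifts were not limited to such genes. The PP242 array also stood at -1.07 for epithelial markers, -0.73 for G2/M genes, 0.43 for endothelial and 0.25 for fibroblast markers. For the same lists the RAD001 array stood at -0.27, -0.71, 0.29 and 0.31. Both arrays stay in the values given without the 8.

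RMI1, BLM and EXO1 had the lowest median differences. RMI1, the scaffold of the BLM dissolution complex, measured 7.57 to 8.07 in the 4 polysome arrays that stand apart, against 9.83 to 10.41 in the other 14. In total RNA RMI1 measured 7.91 to 8.24 in the 4 arrays and 9.54 to 10.65 in the other 13. The 2 ranges did not overlap in either kind of RNA, and the median difference within groups was -2.33. BLM, the Bloom syndrome helicase, had a median difference of -2.01, and the resection nuclease EXO1 one of -2.00. BARD1, the partner of BRCA1, followed at -1.90, the ligase FANCL at -1.80 and the helicase BRIP1 at -1.64. XRCC2 (-1.36), FANCI (-1.31), UBE2T (-1.28) and FANCM (-1.26) completed the 10 genes with a median difference under -1. BRCA1 itself stood at -0.86, with 5.93 to 6.15 in the 4 polysome arrays and 6.73 to 7.21 in the other 14, and PALB2 at -0.55.

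Other members of the same complexes differed less, or lay above. TOP3A, the topoisomerase that works with BLM and RMI1, stood at -0.21, and RMI2 at -0.30. RAD50, the long coiled-coil arm of the break sensor, stood at -0.12, NBN at -0.18 and MRE11 at -0.53. Among the nucleases MUS81 stood at 0.04 and SLX4 at -0.21, while EME1, the partner of MUS81, stood at -0.80. WRN, the Werner syndrome helicase, was the only gene above the other arrays in all 8, by a median of 0.54, and FAN1 stood at 0.34. By role, the medians of these differences were -1.25 for BRCA1 and its 3 measured partners, -0.86 for the 8 Fanconi core genes with UBE2T among them, -0.37 for the 9 strand-exchange genes, -0.35 for the 4 resection genes, -0.25 for the 6 dissolution and helicase genes and -0.21 for the 5 nucleases. Members of 1 role thus lay far apart, from -2.33 to 0.54 within the dissolution and helicase group.

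**Figure D1:**
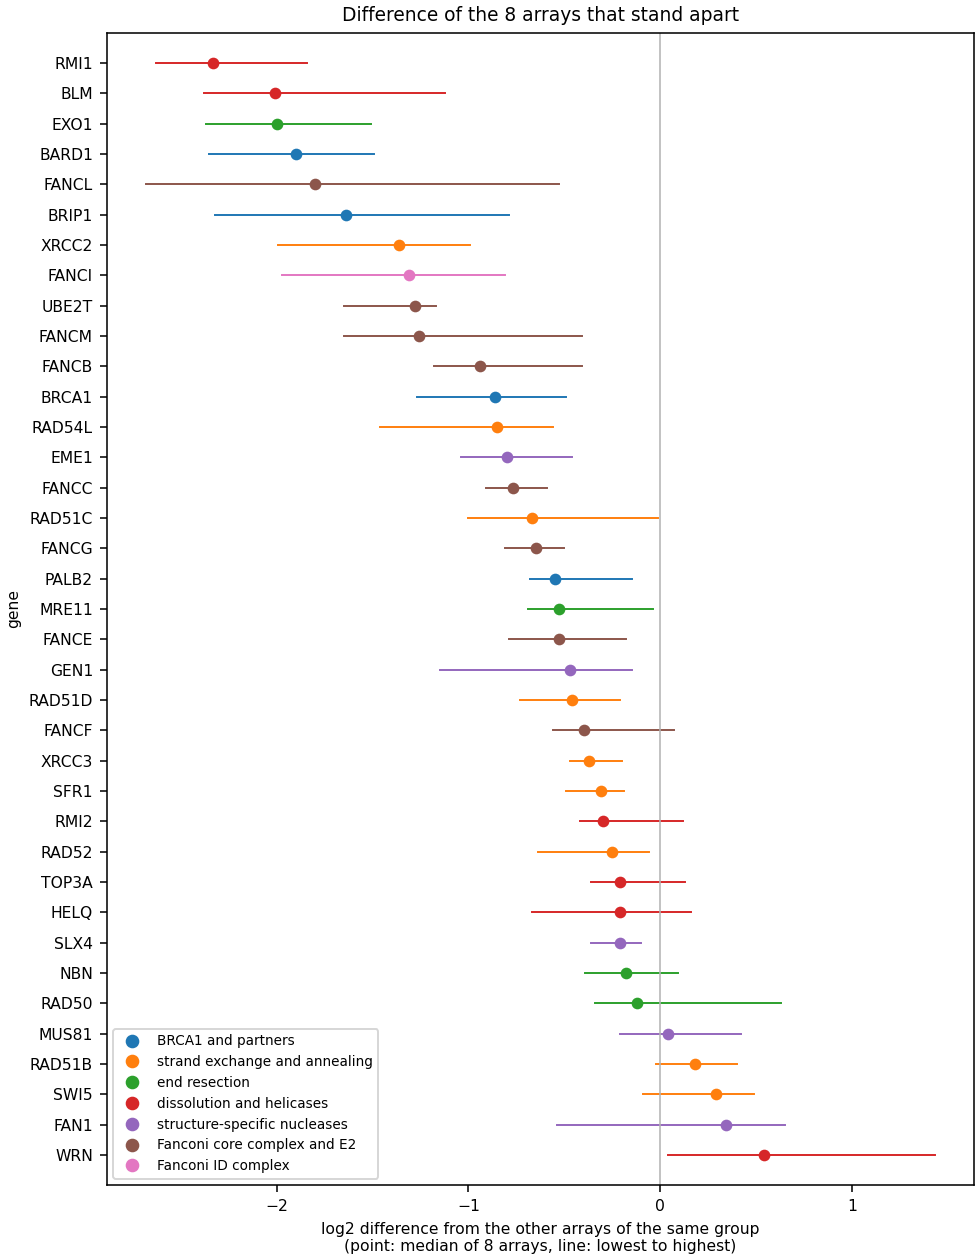
The log2 difference of the 8 arrays that stand apart from the other arrays of the same group is plotted for each of the 37 genes, coloured by role. Points are medians over the 8 arrays and lines run from the lowest to the highest; RMI1 is lowest at -2.33, and WRN highest at 0.54.

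Promoter sequences are shown for RMI1, BLM and EXO1, which differed most in these arrays, and for MUS81 and RAD50, whose median differences were 0.04 and -0.12. Each is the 250 bases before the gene start in RefSeq (GRCh38.p14), 5′ to 3′ on the strand given. Capitals mark CCAAT boxes (CCAAT, or ATTGG on the other strand) and E2F core motifs, which are TTCCCGC or TTGGCGC, and likewise TTCGCGC or TTGCCGC, on either strand. E2F factors are known to drive S phase genes.
RMI1, chr9:83980109-83980358, plus strand: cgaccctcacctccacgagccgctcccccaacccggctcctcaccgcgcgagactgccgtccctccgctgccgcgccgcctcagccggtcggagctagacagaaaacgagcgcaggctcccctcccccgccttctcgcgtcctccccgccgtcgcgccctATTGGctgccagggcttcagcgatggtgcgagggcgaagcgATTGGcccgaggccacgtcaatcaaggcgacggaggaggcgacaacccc
BLM, chr15:90717096-90717345, plus strand: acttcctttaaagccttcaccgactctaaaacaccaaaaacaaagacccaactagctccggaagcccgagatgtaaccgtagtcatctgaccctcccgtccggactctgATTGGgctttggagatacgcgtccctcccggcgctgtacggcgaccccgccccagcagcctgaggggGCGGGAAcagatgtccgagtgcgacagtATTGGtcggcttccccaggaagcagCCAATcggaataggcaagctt
EXO1, chr1:241847954-241848203, plus strand: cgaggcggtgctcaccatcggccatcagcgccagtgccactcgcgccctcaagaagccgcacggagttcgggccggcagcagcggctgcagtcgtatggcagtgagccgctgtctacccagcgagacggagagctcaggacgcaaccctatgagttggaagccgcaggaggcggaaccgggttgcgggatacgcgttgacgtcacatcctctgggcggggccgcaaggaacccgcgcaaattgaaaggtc
MUS81, chr11:65860183-65860432, plus strand: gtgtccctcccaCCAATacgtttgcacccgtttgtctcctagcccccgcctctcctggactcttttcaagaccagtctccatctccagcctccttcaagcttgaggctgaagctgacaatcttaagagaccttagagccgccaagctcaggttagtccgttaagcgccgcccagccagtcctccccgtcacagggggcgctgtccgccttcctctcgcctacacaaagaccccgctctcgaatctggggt
RAD50, chr5:132556727-132556976, plus strand: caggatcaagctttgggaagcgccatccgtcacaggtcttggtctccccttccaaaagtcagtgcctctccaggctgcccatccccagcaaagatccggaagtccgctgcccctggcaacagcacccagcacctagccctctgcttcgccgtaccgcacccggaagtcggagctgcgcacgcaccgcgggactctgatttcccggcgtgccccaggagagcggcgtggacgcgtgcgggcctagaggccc

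BLM held 3 CCAAT boxes and 1 E2F core motif and RMI1 held 2 CCAAT boxes, but EXO1 held neither motif, and MUS81 held 1 CCAAT box. Windows were at hand for 33 of the 37 genes, and were not used here for NBN, WRN, FANCI and RMI2. Only the first listed window of a gene was read, and some genes, EXO1 and RMI1 among them, had 2. The promoters set against them were not limited to the genes measured here. An E2F core motif stood in 9 of the 33 (27.3%), against 11.0% of 27305 promoters, but in 2 of the 9 genes with a median difference under -1 and in 7 of the other 24. A CCAAT box stood in 12 of the 33 (36.4%), against 33.0% of all promoters, and in 5 of the 9 and 7 of the 24. The longer E2F motifs (TTTCCCGC, TTTGGCGC, TTTCGCGC or TTTGCCGC) were found in 1 gene, FANCC (3.03%, against 2.79%), and the cell cycle element TTTGAA or TTCGAA in 5 (15.2%, against 14.6%). A C followed by 4 pyrimidines at the annotated start, the pattern of mRNAs known for translation under mTOR control, was found in 5 genes, BRCA1, RAD51D, SFR1, FANCE and FANCG (15.2%, against 4.04% of all promoters). A match is a description of the letters and not evidence of a site.

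After either inhibitor most recombination and Fanconi genes lay below DMSO in polysome RNA, and none was called. Calls rest on limma's test with Benjamini-Hochberg adjustment over all genes, at an adjusted p under 0.05. With PP242, 32 of 37 genes were below 0 (47.2% of all genes were), with a median log2 change of -0.27 against 0.01 for all genes. None of the 37 was called, where 0.273% of all genes were, and 4 had an unadjusted p under 0.05, all of them lower, where 6.06% of all genes were. The PP242 arrays lay entirely below the DMSO arrays for 12 genes (12.2% of all genes did so) and entirely above for 0 (8.67%). With PP242 + IR, 32 genes were below 0 (46.2% of all genes) at a median of -0.23, 0 were called (0.0940% of all genes) and 3 had an unadjusted p under 0.05, all lower (3.63%), with 10 groups entirely below DMSO (7.49%). With RAD001, 34 genes were below 0 (46.6%) at a median of -0.27, 0 were called (0.00%) and 2 had an unadjusted p under 0.05 (2.18%), 1 in each direction, with 5 groups entirely below DMSO (6.04%). With RAD001 + IR, 33 genes were below 0 (43.8%) at a median of -0.28, 0 were called (0.00%) and 1 had an unadjusted p under 0.05, lower (1.37%), with 5 groups entirely below DMSO (5.60%). These comparisons share the DMSO arrays.

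When the 8 arrays were left out, the member medians were nearer to 0. All 8 were inhibitor arrays in which most of these genes were lower. Leaving them out thus raises the inhibitor values by construction, and the shift is a description with no test. With PP242 26 genes were below 0 (48.6% of all genes) at a median of -0.15, with PP242 + IR 27 (46.2%) at -0.11, with RAD001 23 (46.8%) at -0.05 and with RAD001 + IR 23 (48.0%) at -0.05, and none of the 37 was called. All 4 changes were below 0 for 29 genes with all arrays and for 12 without the 8. The 4 changes share the DMSO arrays, which favours a common sign. The matching shares of all genes were not counted, so neither count can be set against a background. The 22 S phase genes moved alongside, with medians of -0.86 for PP242 and -0.64 for RAD001 in polysome RNA, and -0.12 and -0.06 without the 8 arrays. Their part in the changes of the recombination genes was not tested.

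RAD51C, which assists strand exchange and helps to resolve crossed strands, gave the lowest moderated t of the 37 in each of these 4 comparisons. In polysome RNA RAD51C measured 8.34, 7.95 and 7.47 with PP242, 8.57, 8.33 and 7.45 with PP242 + IR, 8.69, 8.51 and 7.74 with RAD001, and 8.66, 8.34 and 7.82 with RAD001 + IR, against 8.79, 8.98 and 9.11 with IR and 8.85, 8.92 and 9.07 with DMSO. Every inhibitor array was below every DMSO and every IR array. The log2 change was -1.03 ± 0.29 (SE) with PP242 (limma adjusted p = 0.168), -0.83 ± 0.29 with PP242 + IR (adjusted p = 0.498), -0.63 ± 0.29 with RAD001 and -0.67 ± 0.29 with RAD001 + IR (adjusted p = 1 for both). The same changes were -0.80 ± 0.21 (adjusted p = 0.138), -0.50, -0.34 and -0.45 without the 8 arrays. The order of means, PP242, PP242 + IR, RAD001 + IR and RAD001, had neighbours closer together than their spread, and PP242 against RAD001 differed by -0.40 ± 0.29 (adjusted p = 1).

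FANCM, FANCB and XRCC2 were the other 3 genes with an unadjusted p under 0.05 with PP242. FANCM, the translocase that docks the core complex, averaged 6.04 ± 0.54 with PP242 and 7.22 ± 0.27 with DMSO (SD, n = 3 each), a change of -1.18 ± 0.49, and -0.88 without the 8 arrays. FANCB, a core subunit that pairs with FANCL, averaged 5.61 ± 0.55 with PP242 and 6.66 ± 0.43 with DMSO, a change of -1.05 ± 0.43, and -0.74 without the 8. XRCC2 averaged 7.50 ± 0.77 with PP242 and 8.78 ± 0.08 with DMSO, a change of -1.28 ± 0.56, and -0.84 without the 8. None of the 3 groups of PP242 arrays overlapped DMSO, and the adjusted p were 0.456, 0.45 and 0.497. EXO1 had the lowest change of all, -1.43 ± 0.76 and -0.77 ± 0.29 without the 8, with 10.56, 10.55 and 8.58 with PP242 and 11.34, 11.13 and 11.49 with DMSO. The highest moderated t was that of RAD51B in each of the 4 comparisons, with changes of 0.15 ± 0.16 for PP242, 0.21 ± 0.16 for PP242 + IR, 0.35 ± 0.16 for RAD001 (unadjusted p = 0.0349) and 0.19 ± 0.16 for RAD001 + IR. Those of RAD51B were 0.01, 0.15, 0.33 and 0.09 without the 8.

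**Figure D2:**
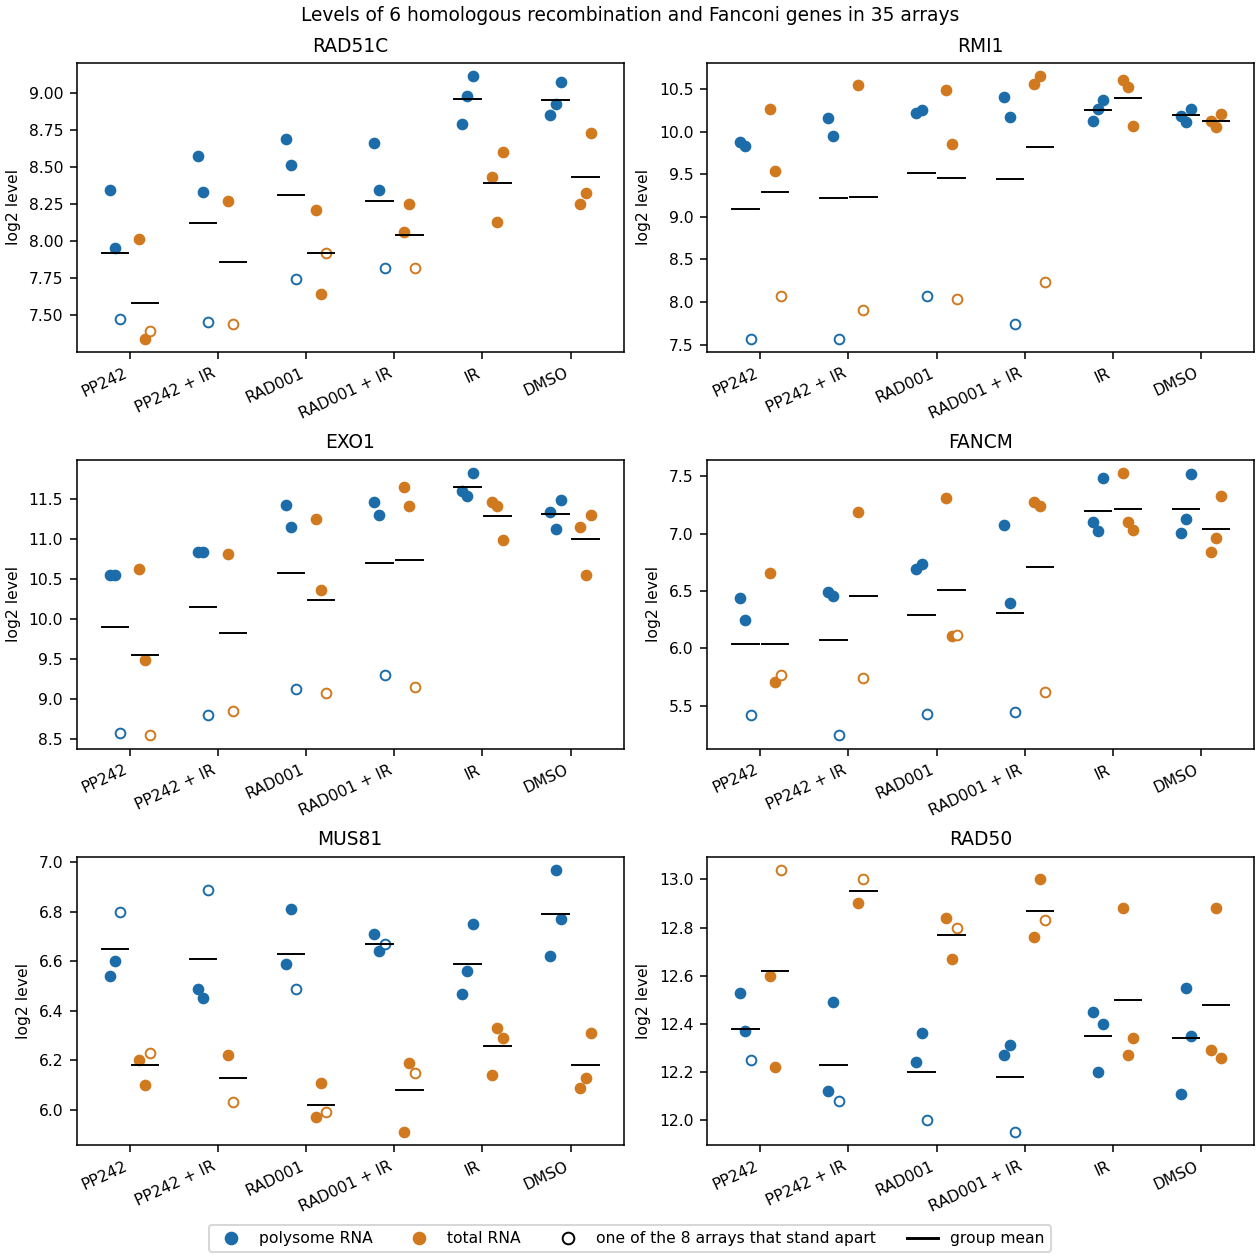
The log2 level of 6 genes is plotted for every array by treatment, with polysome RNA left of total RNA, bars at group means and open points for the 8 arrays that stand apart. RMI1 and EXO1 are low in the open points, RAD51C is lower in all inhibitor polysome arrays than in DMSO, and MUS81 polysome arrays lie above all total RNA arrays.

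BRCA1 and PALB2 lay close to DMSO in polysome RNA outside the 8 arrays. BRCA1 in polysome RNA measured 6.75, 6.93 and 6.11 with PP242 and 7.15, 6.87 and 6.15 with RAD001, against 6.74, 6.90 and 6.94 with DMSO. Only replicate 3 of each inhibitor was under the DMSO arrays. The changes were -0.27 ± 0.37 with PP242 and -0.14 ± 0.37 with RAD001, and -0.02 and 0.15 without the 8. PALB2, a binding partner of BRCA1, changed by -0.02 ± 0.23 with PP242 and by -0.07 ± 0.23 with RAD001, and by 0.15 and 0.10 without the 8. FANCI, the ubiquitin acceptor that clamps DNA, changed by -0.26 ± 0.57 and -0.28 ± 0.57, and by 0.16 and 0.14 without the 8. By role, the medians with PP242 and all arrays were -0.51 for BRCA1 and its partners, -0.40 for the Fanconi core genes, -0.24 for dissolution and helicases, -0.22 for strand exchange and -0.14 for both resection and the nucleases. These medians were, without the 8 arrays, -0.08, -0.27, -0.21, -0.10, -0.01 and -0.18.

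**Figure D3:**
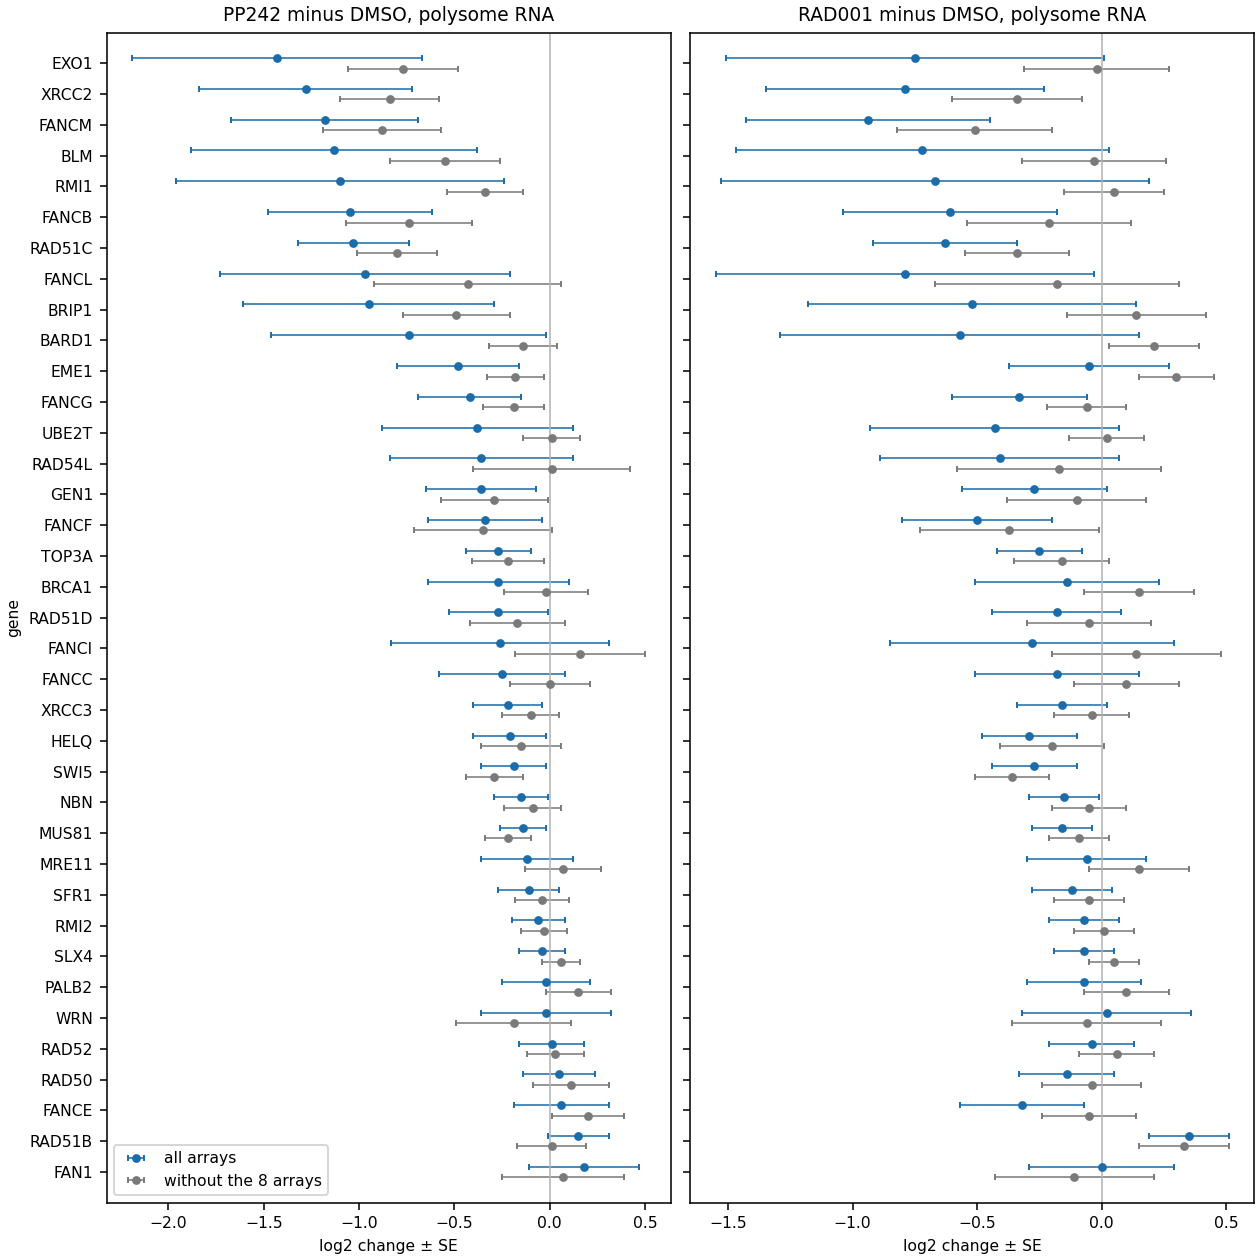
The log2 change (± SE) of each of the 37 genes in polysome RNA is plotted for PP242 minus DMSO and RAD001 minus DMSO, with all arrays (blue) and without the 8 that stand apart (grey). With the 8 left out the median is -0.15 for PP242 and -0.05 for RAD001, against -0.27 for each with all arrays. That shift follows from the choice of the 8. RAD51C stays at -0.80 with PP242.

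In total RNA the picture after PP242 was alike in size, and no gene was called. With PP242, 32 of 37 genes were below 0 (46.8% of all genes were) at a median of -0.32, 0 were called (0.125% of all genes), 4 had an unadjusted p under 0.05, all lower (6.32%), and 8 had PP242 arrays entirely below DMSO (4.87%). RAD51C measured 8.01, 7.34 and 7.39 with PP242 and 8.25, 8.32 and 8.73 with DMSO, a change of -0.85 ± 0.29 (adjusted p = 0.297), and -0.76 without the 8 arrays. SWI5, which with SFR1 aids strand exchange, changed by -0.43 ± 0.17 (adjusted p = 0.368) and TOP3A by -0.38 ± 0.17 (adjusted p = 0.452), against -0.58 and -0.43 without the 8. FANCM averaged 6.04 ± 0.53 with PP242 and 7.04 ± 0.25 with DMSO (SD, n = 3 each), without overlap (adjusted p = 0.53). Leaving out the 8 arrays, 31 genes were below 0 (45.9% of all genes) at a median of -0.23, and the S phase genes stood at -0.63, against -1.12 with all arrays. FANCF, a core subunit, was called without PP242 total replicate 1 (-1.10 ± 0.22, adjusted p = 0.0157) and not with all arrays. BRCA1 changed by -0.28 ± 0.37, PALB2 by -0.02 ± 0.23 and FANCI by -0.77 ± 0.57, and without the 8 by -0.12, 0.05 and -0.50.

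The other inhibitor groups in total RNA were nearer to DMSO. With RAD001, 29 genes were below 0 (54.2% of all genes) at a median of -0.29 and 0 were called (0.00%). The 2 genes with an unadjusted p under 0.05 were RAD51D (-0.56 ± 0.26) and TOP3A (-0.35 ± 0.17), both lower (4.96% of all genes were), at -0.49 and -0.29 without the 8. With PP242 + IR 24 genes were below 0 (55.6%) at a median of -0.20 and 0 were called (0.0269%). RAD50 measured 12.90 and 13.00 with PP242 + IR and 12.29, 12.88 and 12.26 with DMSO, a change of 0.47 ± 0.21 (adjusted p = 0.905), and was the 1 gene higher at an unadjusted p under 0.05 (3.20%). With RAD001 + IR 26 genes were below 0 (58.0%) at a median of -0.09 and 0 were called (0.00895%). WRN measured 8.95, 8.50 and 8.77 with RAD001 + IR and 7.87, 7.69 and 7.93 with DMSO, without overlap, a change of 0.91 ± 0.34 (adjusted p = 0.695), and 0.90 without the 8 arrays. WRN and RAD50 were the 2 genes higher at an unadjusted p under 0.05 (3.32%). RAD50 stood at 0.42 with PP242 + IR and 0.41 with RAD001 + IR without the 8. With the 8 arrays left out, the member medians were -0.04 for RAD001, -0.01 for PP242 + IR and 0.19 for RAD001 + IR, where 27 of 37 genes then lay above 0 (39.7% of all genes). The values for PP242 + IR then rest on 1 total RNA array.

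Translational efficiency, taken as the difference between the polysome and the total RNA change, showed no call among the 37 genes in any of 5 comparisons with DMSO (0.00% of all genes were called in each). With PP242, 18 genes were below 0 (52.4% of all genes) at a median of 0.02, and with RAD001 21 genes (43.7%) at -0.01. With RAD001 + IR, 31 of 37 were below 0 (42.3% of all genes) at a median of -0.17 against 0.04 for all genes, and without the 8 arrays again 31 (42.8%) at -0.21. RAD50 (-0.55 ± 0.27; the 1 gene lower at an unadjusted p under 0.05, 1.43% of all genes), WRN (-0.86 ± 0.47) and GEN1 (-0.72 ± 0.42) had the lowest moderated t there, with an adjusted p of 1 each. With PP242 + IR 23 genes were below 0 (46.4%) at a median of -0.09, and RAD50 stood at -0.58 ± 0.28, again the 1 gene lower at an unadjusted p under 0.05 (1.16%). Leaving out the 8 arrays, which leaves 1 total RNA array of that group, put 30 of 37 genes below 0 with PP242 + IR (47.7% of all genes) at a median of -0.27, and the medians for PP242 and RAD001 at 0.06 and 0.02. BRCA1 stood at 0.02 ± 0.52 with PP242 and -0.18 ± 0.52 with RAD001, and the other genes with a C and 4 pyrimidines at their start lay between -0.17 (SFR1) and 0.14 (FANCE) with PP242, and between 0.05 (SFR1) and 0.38 (RAD51D) with RAD001. These values were smaller than or near their standard errors, which ran from 0.23 to 0.52.

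IR alone, set against DMSO, left no gene of the 37 past the threshold. In polysome RNA 0 of 37 were called (0.00% of all genes), 0 had an unadjusted p under 0.05 (0.806%), and 21 were above 0 (50.9%) at a median of 0.02. The IR arrays lay entirely above DMSO for 2 genes (4.64% of all genes). BLM was 1 of them, with 9.30, 9.28 and 9.58 with IR and 8.80, 9.12 and 9.22 with DMSO, a change of 0.34 ± 0.75. In total RNA 0 were called (0.00%), 0 had an unadjusted p under 0.05 (0.766%), and 29 of 37 were above 0 (50.2% of all genes) at a median of 0.11 against 0.00 for all genes. The highest of these was FANCB at 0.34 ± 0.43, and 0 of the 37 had IR arrays entirely above (1.42% of all genes) or below (2.69%) DMSO. BRCA1 changed by 0.03 ± 0.37 in polysome and 0.12 ± 0.37 in total RNA, PALB2 by -0.02 ± 0.23 and 0.00 ± 0.23, and FANCI by 0.13 ± 0.57 and 0.15 ± 0.57. In translational efficiency 22 genes were below 0 (47.9%) at a median of -0.02, and the lowest moderated t was that of MUS81 (-0.27 ± 0.17).

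IR on top of an inhibitor gave the same kind of result. In polysome RNA PP242 + IR against PP242 had a member median of 0.03, and RAD001 + IR against RAD001 one of 0.00, with 0 genes called in each (0.00% of all genes) and 0 with an unadjusted p under 0.05 (0.533% and 0.609%). In total RNA 27 of 37 genes were above 0 with PP242 (50.2%) at a median of 0.14, and 33 of 37 with RAD001 (53.7%) at 0.19, again with 0 called (0.00%) and 0 with an unadjusted p under 0.05 (4.33% and 1.75%). Those medians were 0.36 without the 8 arrays, with 36 genes above 0 (50.7%), and 0.27, with 34 (51.6%). PP242 + IR total RNA is then a single array, assumed to vary like the other groups. The PP242 and RAD001 arrays set against IR are then replicates 1 and 2, and replicate 2 was the lower for most of the 37 genes. With 1 array left out at a time, the medians in total RNA ran from -0.15 to 0.46 with PP242 and from 0.00 to 0.45 with RAD001. Over all 6 comparisons with IR, changes of the 37 genes ran from -0.25 to 0.53, and only 3 values were beyond 0.5 in either direction, 1 with PP242 and 2 with RAD001 in total RNA. The lowest unadjusted p in them was that of HELQ in total RNA with PP242 (0.41 ± 0.21, adjusted p = 0.894), a helicase of fork repair.

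Whether an inhibitor altered the change with IR was tested as an interaction, and 0 genes of the 37 were called in any of the 4 tests (0.00% of all genes), and 0 had an unadjusted p under 0.05 (between 0.654% and 1.31%). The member medians were 0.03 for PP242 and -0.04 for RAD001 in polysome RNA, and 0.03 and 0.08 in total RNA. In polysome RNA these medians were 0.01 and -0.06 without the 8 arrays, with 27 of 37 genes below 0 for RAD001 (50.3% of all genes). In total RNA they were 0.29 for PP242, with 32 of 37 above 0 (50.9%) and 1 PP242 + IR array left, and 0.17 for RAD001, with 30 above 0 (52.8%). Standard errors of the interaction had a median of 0.41 to 0.44, which was larger than most of the differences with all arrays. The largest moderated t was that of SWI5 with RAD001 in polysome RNA, 0.40 ± 0.23 (limma adjusted p = 1), and 0.40 without the 8.

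**Figure D4:**
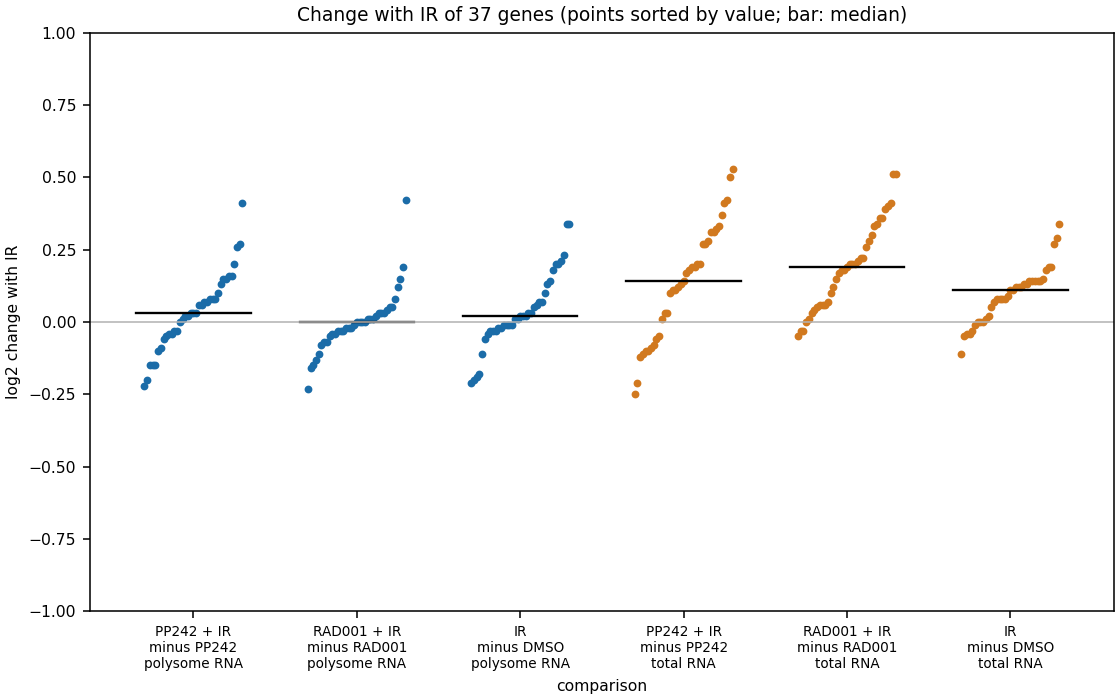
The log2 change with IR is plotted for the 37 genes, sorted within each of 6 comparisons, with polysome RNA in blue, total RNA in orange and a bar at the median. Medians lie between 0.00 and 0.03 in polysome RNA and between 0.11 and 0.19 in total RNA.

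The inhibitors were also set against IR alone. PP242 + IR against IR in polysome RNA had 28 of 37 genes below 0 (47.3% of all genes) at a median of -0.29, with 0 called (0.130%) and 15 genes whose PP242 + IR arrays lay entirely below IR (8.25%). The 4 genes lower at an unadjusted p under 0.05 (3.61%) were RAD51C, which changed by -0.84 ± 0.29 (adjusted p = 0.449), FANCM by -1.14 ± 0.49, FANCB by -1.03 ± 0.43 and EME1 by -0.66 ± 0.32. RAD001 + IR against IR had 31 genes below 0 (43.1%) at a median of -0.31, with 0 called (0.00%). The 2 lower at an unadjusted p under 0.05 (1.97%) were RAD51C (-0.69 ± 0.29) and FANCE, a core subunit that binds the ubiquitin acceptors (-0.54 ± 0.25). In total RNA the medians were -0.28 for PP242 + IR, with 0 called (0.0269%), and -0.19 for RAD001 + IR, with 0 called (0.00448%), and 1 gene in each was higher at an unadjusted p under 0.05 (3.00% and 2.91%), RAD50 by 0.45 and WRN by 0.72. The 4 medians were, without the 8 arrays, -0.13, -0.10, -0.02 and 0.12.

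No gene of the 37 separated PP242 from RAD001 past the threshold. In polysome RNA PP242 minus RAD001 had a member median of -0.06 both without and with IR, with 0 called in each (0.0269% and 0.00448% of all genes), and in total RNA medians of -0.15 and -0.17, with 0 called (0.00448% and 0.00%). In these 4 comparisons 0 of the 37 had an unadjusted p under 0.05 (between 2.20% and 4.71% of all genes). Without the 8 arrays the medians were -0.10 and -0.05 in polysome RNA and -0.25 and -0.03 in total RNA. EXO1 in polysome RNA differed most without IR, at -0.68, and FANCL in total RNA at -0.90 ± 0.76 without IR and -1.10 with it, and -0.75, -1.44 and -1.34 without the 8. For RAD51C the difference was -0.40 ± 0.29 in polysome and -0.34 ± 0.29 in total RNA. Doses and times are not in the labels, so these are values of the 2 treatments as given.

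Polysome RNA against total RNA separated individual genes of the pathway, in both directions, at about the share of all genes. In the mean of the 6 treatments 15 of the 37 were called, where 45.7% of all genes were. MUS81, the nuclease that cuts branched DNA, was higher in polysome RNA throughout. With DMSO MUS81 measured 6.62, 6.97 and 6.77 in polysome RNA and 6.09, 6.13 and 6.31 in total RNA, and with RAD001 it measured 6.59, 6.81 and 6.49 in polysome RNA and 5.97, 6.11 and 5.99 in total RNA. Over all treatments every polysome array (6.45 to 6.97) was above every total RNA array (5.91 to 6.33), the 8 that stand apart included. The difference was 0.61 ± 0.12 with DMSO (adjusted p = 0.00423), 0.47 ± 0.12 with PP242 (adjusted p = 0.0137), 0.48 ± 0.13 with PP242 + IR (adjusted p = 0.033), 0.61 ± 0.12 with RAD001 (adjusted p = 0.00147) and 0.59 ± 0.12 with RAD001 + IR (adjusted p = 0.00221). With IR it was 0.34, which was not called (adjusted p = 0.108). The call with PP242 ended without the 8 arrays (0.42, adjusted p = 0.0668). With PP242 + IR, where 1 total RNA array was then left, the difference was 0.25. The PP242 call also ended without PP242 polysome replicate 3 (adjusted p = 0.0708) or total replicate 2 (0.0622). The PP242 + IR call ended without PP242 + IR polysome replicate 3 (0.168) or total replicate 2, which again leaves 1 total RNA array.

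Few other genes passed the test within a single treatment. With DMSO MUS81 was the 1 gene called of 37 (4.18% of all genes were called), with IR there were 0 (4.36%), with PP242 2 (8.81%), with PP242 + IR 2 (4.62%), with RAD001 5 (11.3%) and with RAD001 + IR 3 (8.12%). With IR 4 genes had an unadjusted p under 0.05 (17.1%). Over the 6 treatments, 6 of the 37 genes were called in at least 1, and 31 in none, where 16.6% of all genes were called in at least 1. Arrays of the same replicate number in the 2 kinds of RNA were treated as pairs in a further fit. For PP242, RAD001 and RAD001 + IR such arrays varied together, but replicate 3 stands apart in both kinds of RNA there. Whether replicates 1 and 2 are true pairs thus cannot be told. With the replicate as a block within each treatment, 8 genes were called with PP242 (13.4% of all genes), 9 with RAD001 (16.8%) and 9 with RAD001 + IR (12.4%), among them FANCE, FANCG, UBE2T, MUS81, RAD51B and XRCC2 in all 3.

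FANCE measured 6.64, 6.50 and 6.14 in polysome RNA and 5.92, 5.34 and 5.45 in total RNA with PP242, without overlap, a difference of 0.86 ± 0.25 (adjusted p = 0.0285). With RAD001 FANCE was higher by 0.89 ± 0.25 (adjusted p = 0.0176). RAD51B (0.48 ± 0.16, adjusted p = 0.0478) and TOP3A (0.50 ± 0.17, adjusted p = 0.0498) were also higher in polysome RNA with RAD001. The calls of RAD51B (0.51, adjusted p = 0.109) and TOP3A (0.54, adjusted p = 0.116) ended without the 8 arrays, and those of FANCE held (adjusted p = 0.0149 and 0.00899). With 1 array left out at a time, the adjusted p of FANCE ran from 0.0128 to 0.14 with PP242 and from 0.00615 to 0.101 with RAD001, that of RAD51B from 0.0323 to 0.279, and that of TOP3A from 0.0173 to 0.243.

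RAD50 went the other way. With RAD001 + IR it measured 12.27, 12.31 and 11.95 in polysome RNA and 12.76, 13.00 and 12.83 in total RNA, without overlap, a difference of -0.69 ± 0.19 (adjusted p = 0.0219). It was also lower in polysome RNA with RAD001 (-0.57 ± 0.19, adjusted p = 0.0483) and PP242 + IR (-0.72 ± 0.21, adjusted p = 0.0469), while with DMSO it measured 12.11, 12.55 and 12.35 in polysome and 12.29, 12.88 and 12.26 in total RNA, which overlapped. The RAD50 calls with RAD001 + IR (-0.59, adjusted p = 0.156) and RAD001 (-0.46, adjusted p = 0.213) did not hold without the 8 arrays. With PP242 + IR the difference was then -0.59, with 1 total RNA array left. With 1 array left out at a time, the adjusted p ran from 0.0334 to 0.119, from 0.0659 to 0.178 and from 0.0459 to 0.4 for the same 3. GEN1, the other resolving nuclease, measured 8.76, 8.54 and 8.27 in polysome RNA and 10.01, 9.77 and 8.73 in total RNA with RAD001 + IR, a difference of -0.98 ± 0.29 (adjusted p = 0.0373), and -1.24 without the 8 (adjusted p = 0.0285); with 1 array left out the adjusted p ran from 0.00547 to 0.198. Whether the RAD50 difference of an inhibitor group was unlike that of DMSO was tested as translational efficiency above and did not pass.

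Averaged over the 6 treatments, a comparison added after the data were seen, 15 of the 37 genes were called, where 45.7% of all genes were. Of these, 11 were higher in polysome RNA (21.2% of all genes): after MUS81 (0.52 ± 0.05, adjusted p = 5.27e-09) and FANCE (0.73 ± 0.10, adjusted p = 1.87e-06) came TOP3A (0.43), RAD51B (0.36), FANCG (0.59), RAD54L (0.85), FANCC (0.46), XRCC3 (0.25), UBE2T (0.70), RAD51C (0.38) and FANCF (0.37). The 4 lower ones (24.5% of all genes) were RAD50 (-0.42 ± 0.08, adjusted p = 0.000103), GEN1 (-0.57 ± 0.12, adjusted p = 0.000478), XRCC2 (-0.89 ± 0.23, adjusted p = 0.00303) and NBN (-0.21 ± 0.06, adjusted p = 0.00355). Of the 8 Fanconi core genes 5 were thus higher, FANCC, FANCE, FANCF, FANCG and the conjugating enzyme UBE2T, whereas FANCB, FANCL and FANCM did not pass. Among the strand-exchange genes RAD51B, RAD51C, RAD54L and XRCC3 were higher and XRCC2 was lower. Of the break sensor RAD50 and NBN were lower and MRE11 (-0.11) did not pass. Leaving out the 8 arrays, 17 genes were called (38.3% of all genes), and FANCF (0.33, adjusted p = 0.104) was not among them. FANCF was also not called without PP242 + IR total replicate 2 (adjusted p = 0.0537).

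The direction was the same in 6 of 6 treatments for 19 genes, 13 of them higher (23.6% of all genes) and 6 lower (25.7% of all genes), and mixed for 18. XRCC2 differed by -1.08 to -0.54 across the treatments, with a median polysome array of 8.34 and a median total RNA array of 9.44. RAD54L, the translocase that drives strand invasion, was higher by 0.61 to 1.06, with medians of 8.04 in polysome and 7.30 in total RNA. UBE2T was higher by 0.37 to 0.96. BRCA1 was higher in polysome RNA in 2 of 6 treatments, between -0.25 and 0.07, and PALB2 in 1 of 6. FANCI was higher in 6 of 6, by 0.14 to 0.67, and did not pass in the mean.

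**Figure D5:**
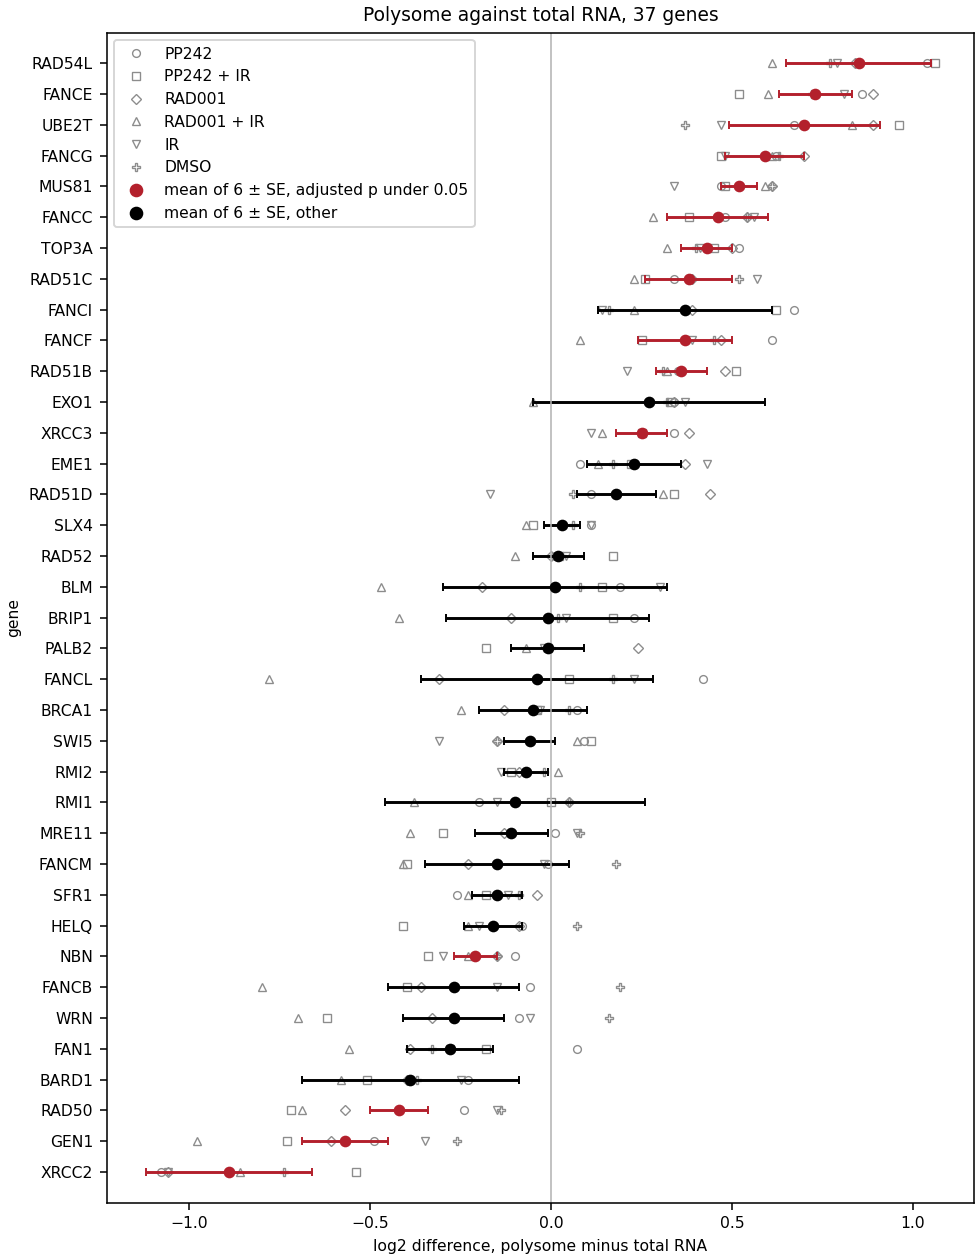
The log2 difference of polysome minus total RNA is plotted for each of the 37 genes, in each treatment (grey symbols) and as the mean of the 6 treatments with its SE (filled, red where called). The genes run from RAD54L at 0.85 to XRCC2 at -0.89, with MUS81 at 0.52 and a short error bar.

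Further genes of these pathways were read alongside, 35 of 38 listed being measured. Against DMSO 0 of the 35 were called in any treatment, on any of the 3 measures, and with PP242 29 of 35 lay below 0 in both kinds of RNA, at medians of -0.17 and -0.20. Between the kinds of RNA, BABAM2, a scaffold of the BRCA1-A complex, was higher in polysome RNA in all 6 treatments. The difference ran from 0.62 to 0.78, with an adjusted p of 0.0109 to 0.0209. Without the 8 arrays BABAM2 was not called with RAD001 + IR (0.44, adjusted p = 0.173). With PP242 + IR it then stood at 0.70, with 1 total RNA array left. SEM1, the small acidic partner of BRCA2, was lower in polysome RNA with IR (-0.76 ± 0.19), RAD001 (-0.81 ± 0.19) and RAD001 + IR (-0.66 ± 0.19; not called without the 8 arrays, at -0.79, adjusted p = 0.0594). FBH1, a DNA helicase, was higher with PP242 (0.63 ± 0.17) and RAD001 (0.70 ± 0.17), and EME2, the other partner of MUS81, was lower with DMSO (-0.36 ± 0.09). In the mean of the 6 treatments 13 of the 35 were higher and 5 lower in polysome RNA (21.2% and 24.5% of all genes), among them the strand-binding subunits RPA1 (0.72 ± 0.20) and RPA2 (0.97 ± 0.19), both higher, and RPA3 (-0.26 ± 0.06), lower.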

How the data were processed

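The deposited table holds log2 values of 65029 probe sets on 35 arrays. The scale was inferred from the values, and what the authors did for background correction, normalization or centring is not given in the sources used here. The platform's annotation gave 1 symbol to 23077 probe sets, several to 1357 and no name to 40595. Older symbols were updated by gene ID, and each symbol kept its probe set of highest mean level, for 22336 genes. No 2 arrays held identical values. Growth and extraction protocols in the labels speak of mouse forelimbs, which contradicts the cell line, so nothing was taken from them.

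All arrays entered 1 fit of 12 group means in R 4.3.3 by limma 3.58.1 (23 residual and 2.69 prior degrees of freedom). The fit was checked on simulated data in which genes varied independently and no arrays stood apart, so the check does not cover such arrays. P-values were adjusted by Benjamini-Hochberg over all genes, within each of 38 comparisons. The ± after a change is its standard error and after a level the SD. The members and gene lists were chosen with earlier results of these data known. The comparison over 6 treatments, the fits without the 8 arrays and the replicate block within treatment were added after the data were seen. Named genes were BRCA1, PALB2 and FANCI in comparisons with DMSO, each called member, and up to 3 members at each end of the moderated t per comparison; others were named for their values. Further alternatives were quantile normalization, a low-level filter, a replicate block, array weights, only the groups compared, the mean of probe sets, the threshold of the design text, and leaving out each array.

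Replicate numbers paired polysome with total RNA for PP242, RAD001 and RAD001 + IR, where the deviations of every pair correlated above 0.1 (lowest 0.21, highest 0.69 over all genes), and not for DMSO, IR or PP242 + IR. Against DMSO every pair did so for IR in polysome RNA (0.12 to 0.34). Precision is limited by the number of arrays.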

Additional observations from a re-analysis of the deposited data

How the results depend on the processing

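Of 4522 recomputed log2 changes of single members, 104 moved to the other side of the threshold, and 0 reversed a called value. Member medians were less stable in sign, and those of 22 of 38 comparisons changed sign under at least 1 alternative. Percentages are shares of all genes tested. Polysome against total RNA depended most on the setting, with 1 member called with DMSO, 0 with IR, 2 with PP242, 2 with PP242 + IR, 5 with RAD001, 3 with RAD001 + IR and 15 in the mean of the 6. The cause of each move was not tested. Quantile normalization gave 2 calls with IR (8.16%), 5 with PP242 (15.6%), 4 with PP242 + IR (9.12%) and 7 with RAD001 + IR (16.0%), and the low-level filter 1 with IR (7.96%). Array weights gave 8 with DMSO (29.8%), 3 with IR (13.7%), 1 with PP242 (9.01%), 0 with PP242 + IR (4.15%) and 3 with RAD001 (9.27%). They also called RAD51C with PP242 against DMSO in polysome RNA (1 member; 4.82%) and 2 members, RAD50 and WRN, with RAD001 + IR against DMSO in total RNA (4.47%). With only the groups compared there were 2 with DMSO (4.62%), 3 with IR (7.98%), 0 with PP242 (0.0134%), PP242 + IR (0.00%) and RAD001 (2.10%), and 1 with RAD001 + IR (2.87%). The threshold of the design text was read as an unadjusted p under 0.05 with a log2 change beyond 1.5 in either direction. It left 0 in each treatment and in the mean of the 6 (0.886%). Of all genes, 0.748% passed with DMSO, 0.851% with PP242, 1.05% with PP242 + IR and 1.41% with RAD001 and with RAD001 + IR. Leaving out the 8 arrays gave 3 with DMSO (5.94%), 3 with IR (6.53%) and 0 with PP242 + IR (0.107%), and moved member medians to -0.05 for RAD001 and for RAD001 + IR against DMSO in polysome RNA, -0.10 for RAD001 + IR against IR in polysome RNA and -0.02 for PP242 + IR against IR in total RNA.

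With the replicate number as a block over all groups there were 2 calls with DMSO (7.16%) and 1 with IR (7.50%), and no other count of calls moved by over 1.5 times. With the replicate block within treatment there were 3 with DMSO (6.88%), 2 with IR (7.31%), 8 with PP242 (13.4%), 9 with RAD001 (16.8%) and 9 with RAD001 + IR (12.4%). That fit used the replicate numbers of every treatment as pairs. It did so also for DMSO, IR and PP242 + IR, where not every pair correlated.

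Leaving out 1 array at a time gave 0 to 4 calls with PP242, 0 to 2 with PP242 + IR, 1 to 5 with RAD001, 1 to 2 with RAD001 + IR, 15 to 18 in the mean of the 6, and 0 to 1 (FANCF) with PP242 against DMSO in total RNA. MUS81 kept its calls with DMSO, RAD001 and RAD001 + IR without any 1 array, and lost them with PP242 without polysome replicate 3 or total replicate 2 and with PP242 + IR without either of the same 2. FANCE with RAD001 held in 3 of 6 and with PP242 in 2 of 6, RAD50 with RAD001 in 0 of 6, with RAD001 + IR in 3 of 6 and with PP242 + IR in 1 of 5, TOP3A in 2 of 6, and RAD51B and GEN1 in 1 of 6 each. Member medians ran, with 1 array left out, from -0.34 to -0.05 for RAD001 and -0.46 to -0.05 for RAD001 + IR against DMSO, and -0.47 to -0.10 for RAD001 + IR against IR, in polysome RNA. PP242 + IR against IR in total RNA ran from -0.50 to -0.02 and its translational efficiency against DMSO from -0.48 to 0.16. Polysome against total RNA ran from -0.22 to 0.48 with PP242 + IR and -0.13 to 0.40 with RAD001. In total RNA RAD001 + IR ran from -0.21 to 0.19 against DMSO, -0.32 to 0.12 against IR and 0.00 to 0.45 against RAD001. PP242 + IR in total RNA ran from -0.15 to 0.46 against PP242. In polysome RNA PP242 + IR ran from -0.22 to 0.24 against PP242 and -0.19 to 0.15 against RAD001 + IR, and RAD001 + IR from -0.25 to 0.18 against RAD001. The interactions ran from -0.23 to 0.21 (PP242, polysome), -0.28 to 0.40 (PP242, total) and -0.27 to 0.17 (RAD001, polysome). Depth is unknown for arrays, and genes near the low-level limit, such as RMI2, carry less signal.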
